A study of Mus musculus with 6 samples.

Results

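The data describe 9 genes of the pathway by which leukemia inhibitory factor (LIF) acts on mouse embryonic stem cells: Lif, Lifr, Il6st, Jak1, Stat3, Socs3, Tfcp2l1, Pim1 and Pim3. They were taken by name from an RNA sequencing table of 24421 genes, and all 9 were found there. LIF, a secreted cytokine, binds the LIF receptor (Lifr), which pairs with the shared signalling subunit gp130 (Il6st). The paired receptors activate the tyrosine kinase JAK1, which leads to phosphorylation of the transcription factor STAT3. STAT3 then enters the nucleus and raises the transcription of feedback and self-renewal genes, among them Socs3, Tfcp2l1 and the Pim kinases. In mouse embryonic stem cells this route sustains self-renewal.

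RNA was measured in 4 libraries of E14 cells, a mouse embryonic stem cell line, 2 from wild-type and 2 from Pml-/- cells. All cells were treated with paraquat, a compound that produces superoxide by redox cycling, at 10 µM for 15 h. All grew in serum-containing medium with LIF, CHIR99021, which inhibits GSK3, and PD0325901, which inhibits MEK. With no untreated library and no library from medium without LIF, the comparison is of cells with and without Pml under treatment, and no response to paraquat or to LIF was measured. Pml encodes the protein around which PML nuclear bodies assemble. How the knockout was made, and whether it is 1 clone, the sources used here do not say. Another 2 of the 6 samples, of chromatin labelled near PML in APEX-PML knockin cells, were not analysed here.

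Reads counted in genes, as recovered from the CPM values, were 31384794 to 44130093 per library. Values are CPM (reads per 1000000 reads counted in genes), given per library and as mean ± SD (n = 2). Log2 fold changes are knockout minus wild type on the log2(CPM + 1) scale from limma, with p adjusted over the 12710 genes whose mean reached 1 CPM. A call means an adjusted p under 0.05. No label ties the replicates to separate cultures; the p-values cover the spread between these libraries alone, and that spread may be technical. The kit entry of wild-type replicate 2 names a DNA library kit alone, where the other RNA libraries' entries name an RNA kit. The Pml transcript itself was at 238 and 228 CPM in the wild-type libraries and at 78.7 and 89.7 CPM in the Pml-/- libraries, in the direction of the labels. Of 8 embryonic stem cell markers, all were tested, at mean levels of 129 CPM (Utf1) to 1288 CPM (Pou5f1). The summed levels of markers of other cells were 6.74 to 8.63 CPM for 8 fibroblast genes, 8.68 to 11.5 CPM for 8 primitive endoderm genes and 10.3 to 12.6 CPM for 6 mesoderm genes. The 6 trophectoderm genes summed to 69.5 to 94.6 CPM, most of it from Tfap2c, which was called higher in the knockout. Dcn, which marks fibroblasts, had no read. In bulk RNA, fewer cells expressing a gene and less RNA per cell cannot be told apart.

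The promoters of the called genes and of Socs3, a standard readout of STAT3 activity, are shown first. RefSeq windows of 300 bases (GRCm38.p6), from 250 before to 50 after an annotated start, were present for all 9 genes, 11 windows in all. The windows of Lifr, from 7129322 and from 7140292, lie inside its annotated span. The bases before the first annotated base of Lifr, 7090610, were therefore not searched. Nor were those of Socs3, a minus-strand gene that begins at 117970336, since its only window reaches no further than 117969616. The windows were searched on both strands for TTCNNNGAA and for TATAAA. TTCNNNGAA is the core of the STAT recognition sequence and reads the same on either strand. TATAAA is the core of the TATA box. These letter strings do not overlap each other. TTCNNNGAA was found in 8.3% and TATAAA in 13.6% of all 32851 windows. Among the 9 genes, TTCNNNGAA was found in 1, Socs3, beginning 154 bases before the start. TATAAA was found in 1, Tfcp2l1, beginning 28 bases before the start used for its window. That start lies within the annotated span of the gene. The match ends at 118627922, directly before the first annotated base of the gene at 118627923. In the sequences below, capitals mark these matches. The Socs3 stretch is the match with its flanks (chr11:117969502-117969530, minus strand); it lies within the annotated span of the gene, which begins further upstream. The others are the bases before the first annotated base of the gene, all on the plus strand: Il6st (chr13:112463820-112464069), Pim1 (chr17:29490535-29490784, the first of its windows) and Tfcp2l1 (chr1:118627695-118627922).
Socs3: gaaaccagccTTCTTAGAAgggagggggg
Il6st: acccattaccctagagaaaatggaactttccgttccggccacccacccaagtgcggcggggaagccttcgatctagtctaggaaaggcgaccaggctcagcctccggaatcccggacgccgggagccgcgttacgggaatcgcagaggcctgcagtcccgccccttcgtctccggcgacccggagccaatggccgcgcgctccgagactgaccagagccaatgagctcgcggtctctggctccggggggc
Pim1: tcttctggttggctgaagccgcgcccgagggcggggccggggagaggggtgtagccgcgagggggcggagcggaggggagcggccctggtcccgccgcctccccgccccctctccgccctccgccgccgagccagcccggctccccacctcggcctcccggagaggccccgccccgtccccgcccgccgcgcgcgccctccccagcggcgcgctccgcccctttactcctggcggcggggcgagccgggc
Tfcp2l1: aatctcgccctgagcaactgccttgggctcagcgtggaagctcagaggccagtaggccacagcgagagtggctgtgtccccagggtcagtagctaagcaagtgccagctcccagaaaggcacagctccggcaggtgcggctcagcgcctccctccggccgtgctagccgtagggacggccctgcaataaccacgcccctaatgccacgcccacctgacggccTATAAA
The Il6st and Pim1 stretches held neither string in this window, and were 66% and 82.4% G or C. A match is a description of the letters and was not tested as a binding site.

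Of the 9 pathway genes, 2 were higher in the knockout, Il6st and Tfcp2l1, 1 was lower, Pim1, and 6 did not pass. All 9 were above the filter, with means from 14.1 CPM (Lif) to 904 CPM (Tfcp2l1). Over all genes, 687 of 12710 tested genes were called, 5.41% of them, with 1.95% higher and 3.45% lower. The median log2 fold change was -0.01 over the 9 genes, against -0.003 over all tested genes. The libraries of the groups did not overlap for 3 of the 9 genes, the same 3 that were called. Over all tested genes the groups did not overlap for 49.3%. The authors' deposited table, in which 3.8% of all genes have a false discovery rate under 0.05, has the same 3 of the 9 under it: Il6st (0.000443), Tfcp2l1 (0.0428) and Pim1 (9.96e-07).

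**Figure D1:**
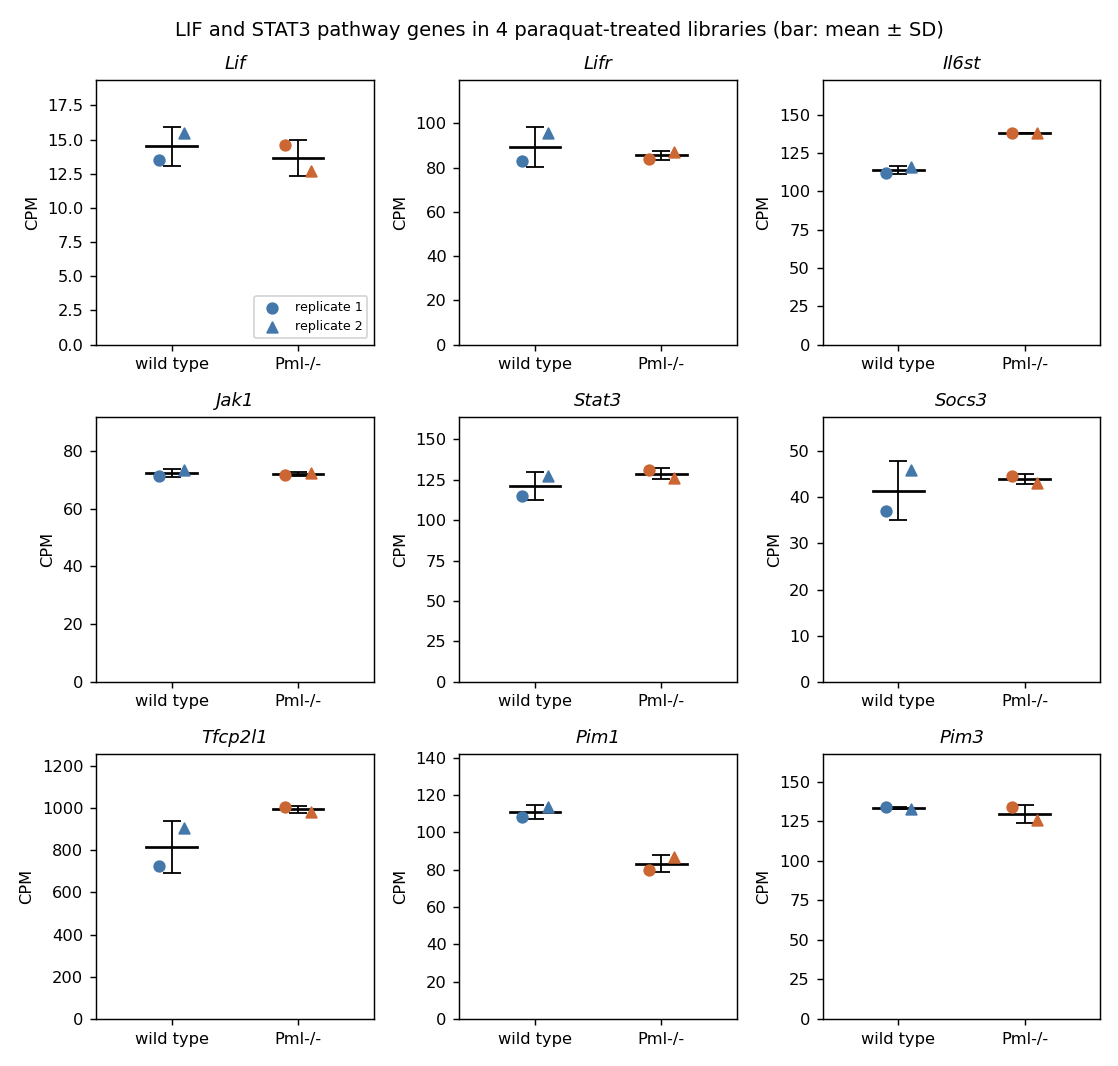
CPM (vertical axis, from 0, one scale per gene) of each of the 9 genes in the wild-type (blue) and Pml-/- (orange) libraries; circles are replicate 1, triangles replicate 2, and bars the mean ± SD of 2 libraries. The groups are separate for Il6st, Tfcp2l1 and Pim1 and overlap for the other genes, and the wild-type libraries of Tfcp2l1 lie far apart, at 726 and 903 CPM.

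The ligand and the receptor genes are taken first. Lif, on chromosome 11 from 4257568 to 4272514 (mm10), was at 13.5 and 15.5 CPM in the wild-type libraries and at 14.6 and 12.7 CPM in the Pml-/- libraries. Knockout replicate 1 lay between the wild-type libraries and knockout replicate 2 below both. The log2 fold change was -0.08 (95% interval -0.31 to 0.15, limma adjusted p = 0.741). The medium already held the protein, and endogenous Lif mRNA was read in both genotypes. Lifr, on chromosome 15 from 7090610 to 7197489, was at 82.9 and 95.8 CPM in the wild-type libraries and at 84.1 and 87.1 CPM in the Pml-/- libraries. Its knockout libraries lay between those of wild type (log2 fold change -0.06, 95% interval -0.20 to 0.08, limma adjusted p = 0.689).

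Il6st, the gp130 subunit shared by receptors of the interleukin-6 family, rose. It lies on chromosome 13 from 112464070 to 112506860. It was at 111.9 and 115.8 CPM in the wild-type libraries and at 138 CPM in both Pml-/- libraries. Each knockout library was above each wild-type library, and within each group the values differed by at most 1.03-fold. The mean went from 114 ± 2.75 to 138 ± 0.13 CPM, a 1.21-fold rise (a log2 difference of 0.28, SE 0.049, 95% interval 0.17 to 0.38, limma adjusted p = 0.00382). Without each library in turn the log2 fold change was 0.25 to 0.30, and it was called each time. The ratio of Il6st to Lifr within a library, which needs no scaling between libraries, was 1.35 and 1.21 in the wild-type libraries and 1.64 and 1.58 in those without Pml. These ratios do not overlap between groups, but they rest on the called gene Il6st and are not a separate result. With 2 libraries against 2 the smallest p an exact two-sided permutation test allows is 0.333. That was its value here, so this test cannot decide.

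Neither the kinase nor the transcription factor downstream of the receptors passed. Jak1, on chromosome 4 from 101151974 to 101265282, was at 71.5 and 73.5 CPM in the wild-type libraries and at 71.7 and 72.5 CPM in the Pml-/- libraries. All 4 libraries lay within 1.03-fold of each other, and the 95% interval of the log2 fold change ran from -0.13 to 0.11 around -0.01 (limma adjusted p = 0.959). That interval spans 0.916-fold to 1.08-fold. Stat3, on chromosome 11 from 100886806 to 100939594, was at 115 and 127 CPM in the wild-type libraries and at 131 and 126 CPM in the Pml-/- libraries. Wild-type replicate 1 was lowest, the other 3 libraries lay close together, and the groups overlapped (log2 fold change 0.09, 95% interval -0.03 to 0.21, limma adjusted p = 0.442). The phosphorylated form of STAT3, through which the pathway acts, is not measured by RNA.

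**Figure D2:**
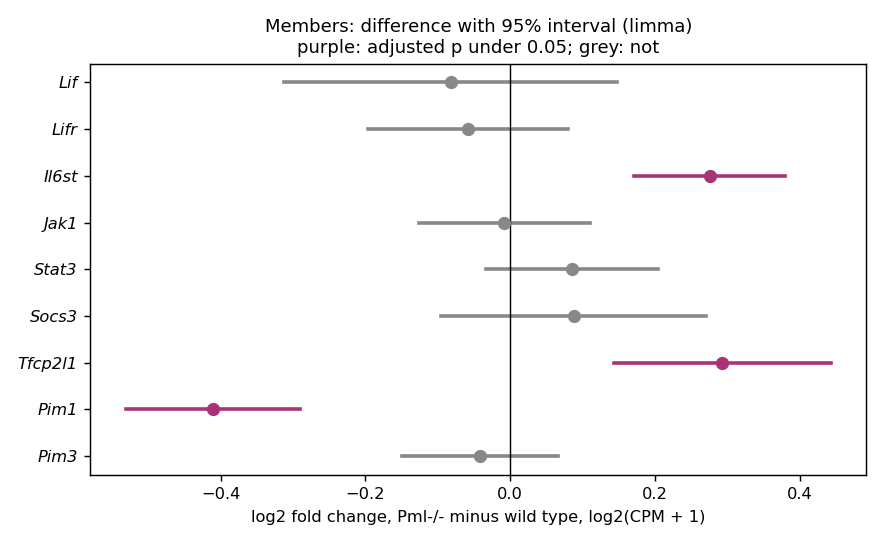
Log2 fold change (horizontal axis, knockout minus wild type) of each of the 9 genes with its 95% interval from limma, called genes in purple and others in grey. Il6st and Tfcp2l1 lie above 0 at 0.28 and 0.29, Pim1 lies below at -0.41, and the intervals of the other 6 genes include 0.

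Of the genes that STAT3 is known to drive, the feedback inhibitor and the transcription factor are described next. Socs3, which binds gp130 and JAKs and ends their signalling, lies on chromosome 11 from 117966079 to 117970336. It was at 37.0 and 46.0 CPM in the wild-type libraries and at 44.6 and 43.1 CPM in the Pml-/- libraries. Both knockout libraries lay between the wild-type libraries, which differed 1.24-fold (log2 fold change 0.09, 95% interval -0.10 to 0.27, limma adjusted p = 0.64). Without wild-type replicate 1 the log2 fold change of Socs3 was -0.07, so the sign depends on that library.

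Tfcp2l1, a transcription factor that can sustain self-renewal in place of LIF, lies on chromosome 1 from 118627923 to 118685168. It was at 726 and 903 CPM in the wild-type libraries and at 1005 and 981 CPM in the Pml-/- libraries. Both knockout libraries were above both wild-type libraries, but wild-type replicates 1 and 2 differed 1.24-fold, beside 1.22-fold between the means of the groups. The mean was 815 ± 125 CPM for wild type and 993 ± 16.7 CPM without Pml (log2 fold change 0.29, SE 0.071, 95% interval 0.14 to 0.44, limma adjusted p = 0.0241). This call ended without wild-type replicate 1 (log2 fold change 0.14, adjusted p = 0.319), without knockout replicate 1 (0.28, adjusted p = 0.0546) and without knockout replicate 2 (0.31, adjusted p = 0.0604). Without wild-type replicate 2, whose kit entry differs, 1 wild-type library was left, with no spread of its own. The log2 fold change of Tfcp2l1 was then 0.45. DESeq2 on reads recovered from the CPM values did not call it either, at a log2 fold change of 0.29 (adjusted p = 0.515). Among these lost calls the difference was 0.14 without wild-type replicate 1 and 0.28 to 0.31 in the others. Wild-type replicate 1 was the lowest of the 4 libraries for 6 of the 9 genes. Of the 9, 8 were higher in wild-type replicate 2 than in replicate 1. The share of all tested genes with either order was not counted, so these counts have no background beside them. Whether the kit plays a part in these orders was not tested.

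The Pim genes encode serine/threonine kinases that promote survival and growth and are induced by STAT3 in many cells. Pim1, on chromosome 17 from 29490785 to 29496111, was at 108 and 114 CPM in the wild-type libraries and at 79.8 and 86.5 CPM in the Pml-/- libraries. Each knockout library was below each wild-type library. The mean fell from 111 ± 3.79 to 83.2 ± 4.74 CPM, 1.33-fold lower (a log2 difference of -0.41, SE 0.057, 95% interval -0.53 to -0.29, limma adjusted p = 0.000515). Without each library in turn the log2 fold change of Pim1 was -0.47 to -0.35, and it was called each time.

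Pim3, on chromosome 15 from 88862194 to 88865726, was at 134 and 133 CPM in the wild-type libraries and at 134 and 125 CPM in the Pml-/- libraries. Knockout replicate 1 lay between the wild-type libraries and replicate 2 below them (log2 fold change -0.04, 95% interval -0.15 to 0.07, limma adjusted p = 0.715). The intervals of Pim1 and Pim3 do not overlap. The ratio of Pim1 to Pim3 within a library was 0.807 and 0.855 in the wild-type libraries and 0.597 and 0.690 in those without Pml. It was separate between groups, with an exact two-sided permutation p = 0.333, again the smallest possible. This ratio rests on the called gene Pim1 and is not a separate result. The third Pim gene, Pim2, named for comparison, was at 17.1 and 18.6 CPM in the wild-type libraries and at 18.7 and 20.1 CPM in the Pml-/- libraries (log2 difference 0.11, limma adjusted p = 0.568).

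**Figure D3:**
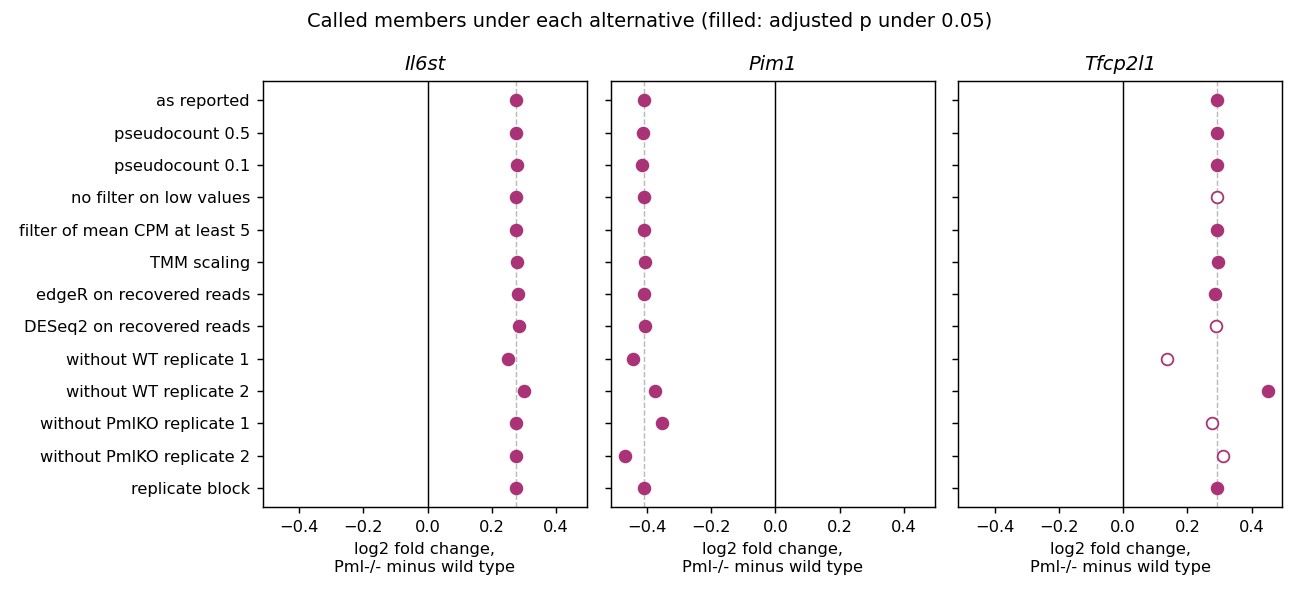
Log2 fold change (horizontal axis, knockout minus wild type) of the 3 called genes as reported (dashed line) and under each alternative treatment of the data (vertical axis), filled where the adjusted p is under 0.05. Il6st and Pim1 are filled throughout, and Tfcp2l1 is open in 5 of 12 alternatives.

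The other genes around this pathway were grouped into 5 lists of 71 genes by role, of which 61 were tested. None was called higher and 3 were called lower, 4.92% of the tested genes, beside the 5.41% called over the whole table. Genes with an unadjusted p under 0.05 are also counted for each list below. The share of all tested genes under it was not counted, so those counts have no background beside them. Both edgeR and DESeq2, run on reads recovered from the CPM values, called the same 3 genes and no other of these lists. Some uncalled genes of these lists moved when a wild-type library was left out. Without wild-type replicate 2 the log2 fold changes of Stat5b, Myc and Icam1 were -0.52, -0.59 and 0.26. With all 4 libraries they were -0.39, -0.41 and 0.19, and without wild-type replicate 1 they were -0.26, -0.23 and 0.12.

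Among 14 other ligands and receptors of the interleukin-6 family, 6 were tested and none was called (limma; 2 had an unadjusted p under 0.05). The other 8 were below the filter, among them Osmr, the oncostatin M receptor, at 0 to 0.18 CPM, and Il6, at 0 to 0.05 CPM. Il6ra, the interleukin-6 receptor that uses gp130, had the highest CPM of the list, at 12.7 and 11.6 CPM in the wild-type libraries and at 9.70 and 9.47 CPM in the Pml-/- libraries. Its libraries did not overlap between groups, and it did not pass (log2 fold change -0.31, limma adjusted p = 0.12).

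Of 9 other JAKs and STATs, all were tested and none was called (limma; 4 had an unadjusted p under 0.05), with a median log2 fold change of 0.005. Tyk2, the kinase gene with the highest CPM here, was at 60.3 and 63.5 CPM in the wild-type libraries and at 62.2 and 61.9 CPM in the Pml-/- libraries. Stat5b, a STAT of growth hormone and prolactin signalling, named after its values were seen, was nearest the threshold. It was at 16.4 and 13.6 CPM in the wild-type libraries and at 11.5 and 10.7 CPM in the Pml-/- libraries (log2 difference -0.39, limma adjusted p = 0.0541), and was called under TMM scaling (adjusted p = 0.0482).

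Of 15 inhibitors of JAK-STAT signalling (other SOCS proteins, PIAS proteins and tyrosine phosphatases), 14 were tested and none was called (limma; 3 had an unadjusted p under 0.05), with log2 fold changes from -0.28 to 0.18. The remaining gene, the leukocyte phosphatase Ptprc, had no read. Pias2, a SUMO ligase, had the highest CPM, at 298 and 296 CPM in the wild-type libraries and at 321 and 327 CPM in the Pml-/- libraries (log2 difference 0.12, limma adjusted p = 0.109).

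Of 13 genes of the receptor's SHP2 and PI3K branches, all were tested and none was called (limma; 2 had an unadjusted p under 0.05), with a median log2 fold change of -0.01. Gab1, a docking protein of these branches, had the highest CPM, at 456 CPM in both wild-type libraries and at 440.2 and 465 CPM in the Pml-/- libraries (log2 difference -0.01, limma adjusted p = 0.927).

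Of 20 other genes known to respond to LIF or STAT3, 19 were tested. Of these, 3 were called lower and none higher, and 6 had an unadjusted limma p under 0.05. The median log2 fold change of the list was -0.08. Over all tested genes 3.45% were called lower and 1.95% higher. Klf5, a transcription factor of self-renewal, was at 181 and 164 CPM in the wild-type libraries and at 127 and 144 CPM in the Pml-/- libraries. Its groups did not overlap, and it fell 1.27-fold (a log2 difference of -0.34, SE 0.063, limma adjusted p = 0.00437). Cebpb, a transcription factor of acute-phase and stress responses, was at 33.8 and 31.6 CPM in the wild-type libraries and at 22.8 and 23.6 CPM in the Pml-/- libraries, 1.41-fold lower (log2 fold change -0.48, limma adjusted p = 0.00226). Pramel7, a factor of naive pluripotency that STAT3 induces, had the largest difference of this list, being at 6.72 and 7.002 CPM in the wild-type libraries and at 2.65 and 2.52 CPM in the Pml-/- libraries (log2 difference -1.13, limma adjusted p = 0.000135).

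Others of this list did not pass. Mcl1, a survival gene with the highest CPM here, was at 549 and 526 CPM in the wild-type libraries and at 563 and 530 CPM in the Pml-/- libraries (log2 difference 0.02, limma adjusted p = 0.827). Klf4, a pluripotency factor named after its values were seen, was at 242 and 248 CPM in the wild-type libraries and at 265 and 275 CPM in the Pml-/- libraries, the opposite order to Klf5 (log2 fold change 0.14, limma adjusted p = 0.0855). Myc, also named after its values were seen, was at 13.4 and 10.2 CPM in the wild-type libraries and at 8.15 and 8.97 CPM in the Pml-/- libraries (log2 difference -0.41, limma adjusted p = 0.0844).

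**Figure D4:**
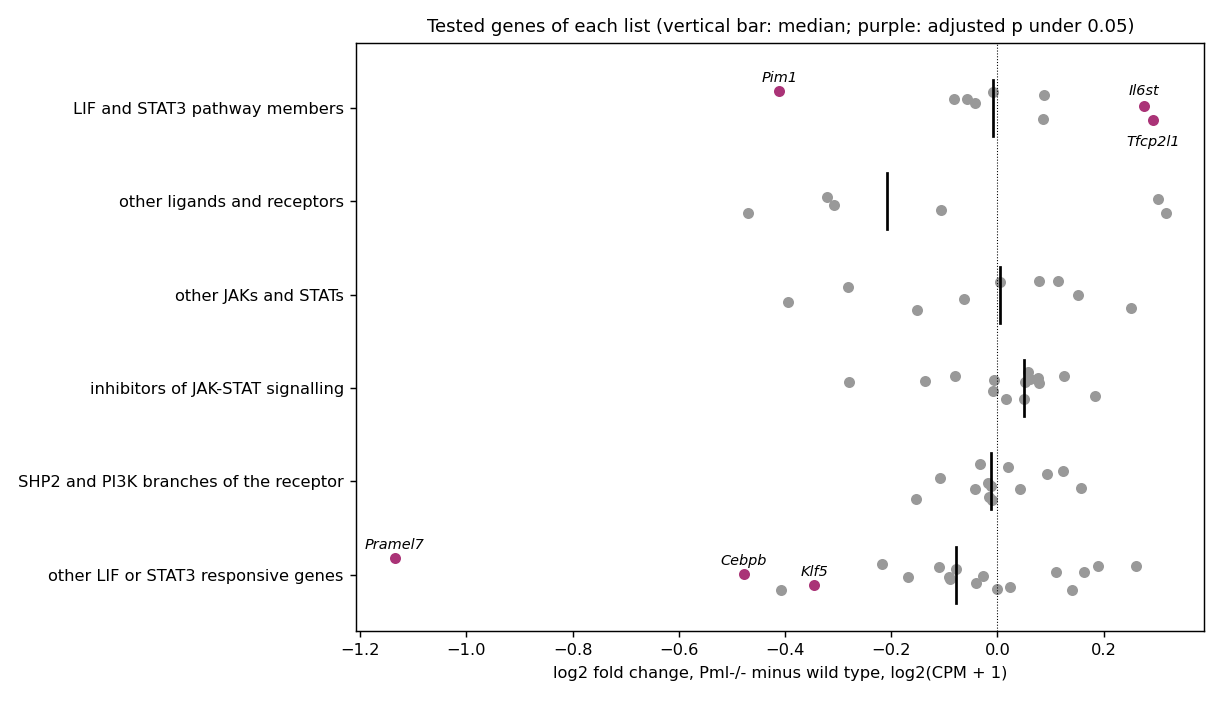
Log2 fold change (horizontal axis, knockout minus wild type) of each tested gene of the 9 pathway genes and of the 5 further lists (vertical axis); vertical bars are list medians, and called genes are purple and named. The further lists hold 3 called genes, Klf5, Cebpb and Pramel7, all below 0.

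Some markers also differed between the groups, where 5.41% of all tested genes were called. Of the 8 embryonic stem cell markers, Zfp42 fell (log2 fold change -0.27), Utf1 fell (-0.43) and Tdgf1 rose (0.17) (limma adjusted p = 0.00251, 0.0342 and 0.0444), and the list summed to 6145 and 6018 CPM in the wild-type libraries and to 5957 and 6009 CPM in the Pml-/- libraries. Of 6 trophectoderm markers, 4 were tested and 1 rose, Tfap2c, from 52.5 ± 3.80 to 71.3 ± 0.85 CPM (limma adjusted p = 0.000845), so that the list summed to 69.5 and 75.9 CPM in the wild-type libraries and to 94.6 and 92.8 CPM in the Pml-/- libraries. The other tested genes, Krt8, Krt18 and Gata3, had means of 10.1, 4.30 and 5.02 CPM in wild type. Their knockout means were higher, at 11.0, 4.95 and 5.73 CPM, and none was called (limma adjusted p = 0.694, 0.579 and 0.545). The remaining genes were below the filter: Cdx2, which defines trophectoderm, at 0.45 to 0.97 CPM, and Elf5 at 0 to 0.05 CPM. The part of these markers in the differences of the pathway genes was not tested.

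The genes whose 4 library values lay nearest to those of Stat3 and Socs3 were found among the other 12709 tested genes, by Euclidean distance of log2(CPM + 1) after subtracting each gene's mean. Nearest to Stat3 were Phax, an adaptor for RNA export (distance 0.0153), Fancm, a DNA repair helicase gene (0.0184), and Nup210, a nuclear pore gene (0.0184). Nearest to Socs3 were 5830417I10Rik (0.0104), Abca1, a lipid exporter gene (0.0191), and Cbl, a ubiquitin ligase gene (0.0292). Each of these 6 was lowest in wild-type replicate 1, as Stat3 and Socs3 were, which follows from how the 6 were picked. For example, Abca1 was at 49.4 and 61.8 CPM in the wild-type libraries and at 59.8 and 57.0 CPM in the Pml-/- libraries. With 4 libraries the likeness describes little beyond that order.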

How the data were processed

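Per the submitters' processing notes, cutadapt, TopHat and edgeR were used on the RNA reads, with the mm10 genome; the sources used here give no version, annotation, use of strand or treatment of reads matching several genes. The authors deposited CPM per library, with a log2 fold change (wild type over knockout), a p-value and a false discovery rate per gene. Low CPM values are whole multiples of 1 read: 100% of values gave whole reads within 0.001 reads.

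The 9 genes and the other lists were chosen with earlier results of these data known; 1 listed gene is not reported here. The main test, of log2(CPM + 1), was limma-trend from limma 3.58.1 in R 4.3.3, with genotype as the only term. It covered genes whose mean reached 1 CPM, with Benjamini-Hochberg adjustment and a threshold of 0.05. The code was also run on simulated counts, where recovery was required only of differences larger than those of the 9 genes. Named were the 9 genes and called genes of each list (up to 4) with its gene of highest CPM. The 3 genes nearest to Stat3 and to Socs3 were named too. Stat5b, Klf4, Myc, Pim2, Icam1, Il6, Osmr, Ptprc and the markers named fall outside this rule and were chosen after their values were seen. The 2 ratios between genes also fall outside it. Alternatives were other pseudocounts and filters, TMM scaling, edgeR 4.0.16 (quasi-likelihood) and DESeq2 1.42.0 on recovered reads, each library left out, and a replicate block. Replicates differed beyond sampling noise (chi-square per degree of freedom 5.68 in wild type, 7.37 in the knockout). Sequences, names and coordinates came from RefSeq tables of GRCm38.p6, the assembly named mm10.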

Additional observations from a re-analysis of the deposited data

How the results depend on the processing

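Il6st, Pim1, Klf5, Cebpb and Pramel7 kept their direction and their call under every alternative run for them (12 each; 11 for Pramel7, which a filter of 5 CPM removes), with log2 fold changes of 0.25 to 0.30, -0.47 to -0.35, -0.44 to -0.25, -0.53 to -0.43 and -1.41 to -1.11. The call of Tfcp2l1 ended in 5 of 12, the 4 given above and no filter on low values (0.29, adjusted p = 0.146). The cause was not tested. Signs turned only among uncalled genes when a library was left out: the log2 fold change then ranged from -0.175 to 0.0106 for Lif, -0.161 to 0.0446 for Lifr, -0.0284 to 0.0121 for Jak1, -0.0651 to 0.241 for Socs3 and -0.0873 to 0.00399 for Pim3. With one library left out, its arm is a lone sample assumed to vary like the other group. The count over all genes (687) was then 367 (without knockout replicate 2), 439 (without wild-type replicate 1), 669 or 869 (without wild-type replicate 2), and 298 of 18761 genes with reads when no filter was set; edgeR called 620 and DESeq2 484. Counts among the 9 genes were 2 to 3 with a library left out, and among the 61 tested genes of the other lists 3 to 7, the highest without wild-type replicate 2. With the replicate number as a block (replicate block), 1198 genes, the same 3 of the 9 and 6 of the other lists were called. Those 6 were Klf5, Cebpb, Pramel7, Stat5b, Myc and Icam1. Same-numbered libraries' deviations correlated at 0.12 over genes, but with 2 pairs and no label that ties them they share only a number. Lif, the gene of the 9 with fewest reads, had 424 to 684 per library; how much of each gene's spread is counting error was not tested.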
